A study of Mus musculus with 9 samples.

Results

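The expression of 10 genes of the tubulin family, called isotype genes below, was followed across male germ cells of the mouse: the alpha tubulins Tuba1a, Tuba1b, Tuba3a, Tuba3b and Tuba8, the beta tubulins Tubb4b, Tubb5 and Tubb2a, the delta tubulin Tubd1 and the epsilon tubulin Tube1. They were taken by symbol from the 21877 NCBI genes among the 50493 features of the count and FPKM tables, and all 10 were found. RNA came from testis of wild-type mice and was sequenced after removal of ribosomal RNA in 9 libraries: 3 of pachytene spermatocytes (PAC), meiotic cells with paired chromosomes, 3 of round spermatids (RS), the haploid products of the meiotic divisions, and 3 of cells labelled elongation spermatids (ES), which condense their nucleus and build the tail. No mutation or treatment separates the groups. How the cells were isolated, and from which and how many animals, is not given in the sources used here, so p-values measure the spread between these libraries.

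Microtubules are polymers of alpha and beta tubulin heterodimers. Mammalian genomes hold several genes for each partner, and their proteins differ mostly in the acidic tail at the carboxyl end, the stretch that carries most of the chemical marks added to microtubules. Spermatocytes need microtubules for the meiotic spindle, and spermatids build the manchette, a skirt of microtubules around the lengthening nucleus, and the axoneme, the core of the flagellum. Delta and epsilon tubulin are not building blocks of ordinary microtubules but are needed for the triplet microtubules of centrioles.

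The coding ends of 6 alpha and beta isotype genes show where these isotypes part. The last 60 coding bases are printed 5′ to 3′ from the GENCODE M21 transcripts on GRCm38, with the last codon and the stop codon in capitals.
Tuba3a: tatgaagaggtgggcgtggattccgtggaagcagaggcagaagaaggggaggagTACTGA
Tuba3b: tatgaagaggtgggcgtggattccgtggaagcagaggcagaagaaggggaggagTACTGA
Tuba8: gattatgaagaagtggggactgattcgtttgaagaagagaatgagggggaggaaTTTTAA
Tubb4b: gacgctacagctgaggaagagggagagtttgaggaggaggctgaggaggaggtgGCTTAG
Tubb5: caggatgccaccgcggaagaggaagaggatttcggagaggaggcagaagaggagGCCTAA
Tubb2a: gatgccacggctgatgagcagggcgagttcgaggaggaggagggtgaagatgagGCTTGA
Tuba3a and Tuba3b are identical over these bases. Both close with a tyrosine codon, the residue that the tyrosination cycle removes and restores, while Tuba8 closes with a phenylalanine codon. Over the whole coding sequence Tuba3a and Tuba3b were 97.0% identical, with 41 differences in 1353 bases, and Tuba1a and Tuba1b were 98.3% identical.

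This likeness limits how reads can be assigned. Of all windows of 100 bases in the transcript, 69.5% in Tuba1b, 65.1% in Tuba1a, 36.9% in Tubb2a, 29.2% in Tubb4b, 12.3% in Tuba3a and 11.8% in Tuba3b also occur in another gene. For Tubb4b most of these, 27.4% of all its windows, occur in the pseudogene Tubb4b-ps1. Tuba8, Tubb5, Tubd1 and Tube1 share 0 windows. The deposited counts carry the same mark. With a tolerance of 0.02 counts, Tuba3a and Tuba3b were each whole in 1 of 9 libraries, yet their sum was whole in 9 of 9, and the sum of Tubb2a and its neighbour Tubb2b was likewise whole in 9 of 9. Tuba1a and Tuba1b were whole in 0 of 9, and their sum with the close copy Tuba1c in only 1 of 9. Tubb4b was whole in 1 of 9, and its counts were not summed with those of its pseudogenes. Values of these genes one by one are therefore uncertain. Sums over close copies are given beside them, except for Tubb4b. The sum of the 3 Tuba1 genes is uncertain as well, since they also share windows with other genes such as Gm17383, Gm49450 and Gm14150. In GENCODE M21, Tuba1a and Tuba1b overlap the gene Gm49450 on the same strand. Tuba1b, Tuba3a, Tuba8, Tubb4b and Tube1 overlap a gene on the other strand, and whether the counting used strand is not stated.

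On GRCm38.p6 the isotype genes lie on 7 chromosomes. Tuba1a (chr15:98949847-98953501, minus strand, 4 exons) and Tuba1b (chr15:98931429-98934390, minus strand, 4 exons) are neighbours. Tuba3a (chr6:125278270-125286081, minus strand), Tuba3b (chr6:145615963-145621477, plus strand) and Tuba8 (chr6:121210734-121226098, plus strand), with 5 exons each, share a chromosome. Tubb4b (chr2:25222158-25224702), Tubb5 (chr17:35833920-35838301) and Tubb2a (chr13:34074278-34078008) are all on the minus strand with 4 exons. Tubd1 (chr11:86544991-86571608) and Tube1 (chr10:39133949-39151058) are on the plus strand, with 9 and 12 exons.

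The libraries held 22910156 to 33801617 estimated counts. Levels below are CPM after TMM scaling, that is, counts relative to the scaled library total, when 1 gene is followed across libraries, and FPKM, which is per transcript length, when genes are compared with each other. Markers of pachytene cells were highest in PAC, at 1369 to 1603 CPM in sum against 587 to 618 in RS and 493 to 607 in ES. The summed markers of elongating spermatids ran from 1699 to 2487 CPM in PAC, from 13543 to 15454 in RS and from 33459 to 65594 in ES. The round spermatid list was in sum highest in ES and not in RS, with 419 to 541, 1645 to 1743 and 2845 to 3543 CPM. By gene, edgeR called 1 of its 6 members higher in ES than in RS (Tssk6). It called 4 lower (Acrv1, Spaca1, Spaca7 and Catsper3), and the median log2 fold change of the list was -0.94. Markers of Sertoli cells, the somatic cells that nurse germ cells, did not fall away in the last group. Over 10 genes they summed to 33.2 to 65.3 CPM in PAC, 8.23 to 8.85 in RS and 200.1 to 238 in ES, with Amh at 0 in all RS libraries. Markers of macrophages and blood summed over 8 genes to 4.20 to 4.67, 15.8 to 17.7 and 135 to 213 CPM.

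Tubb4b, a beta tubulin of cilia and flagella, was the most abundant isotype gene by FPKM in all 9 libraries, at 1022 ± 54.1 FPKM (SD, n = 3) in PAC, 1088 ± 44.7 in RS and 835 ± 7.62 in ES. Tuba3b followed with 418 ± 12.2, 207 ± 8.11 and 140.0 ± 48.3 FPKM and Tuba3a with 302 ± 24.6, 164 ± 10.6 and 111 ± 47.9. The 2 Tuba3 genes, alpha tubulins found mainly in testis, exceeded the other 3 alpha isotype genes in each cell type. Tubd1 came next in PAC and RS with 41.9 ± 9.56 and 23.5 ± 1.15 FPKM, while in ES Tuba8 at 36.2 ± 12.2 and Tuba1a at 18.1 ± 3.54 had means above that of Tubd1, 15.4 ± 1.19. At the other end Tube1 measured 0.880 ± 0.194, 0.234 ± 0.0260 and 0.200 ± 0.0864 FPKM. In ES the ranges over libraries of Tuba1a, Tubd1 and Tuba1b (14.1 ± 3.44) overlapped, as did those of Tuba3a and Tuba3b. Within each ES library, however, Tuba3b exceeded Tuba3a (89.8 against 65.1, 144 against 108 and 186 against 161 FPKM). Tuba1a likewise exceeded Tubd1 and Tuba1b in each ES library, while the order of Tubd1 and Tuba1b varied.

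**Figure D1:**
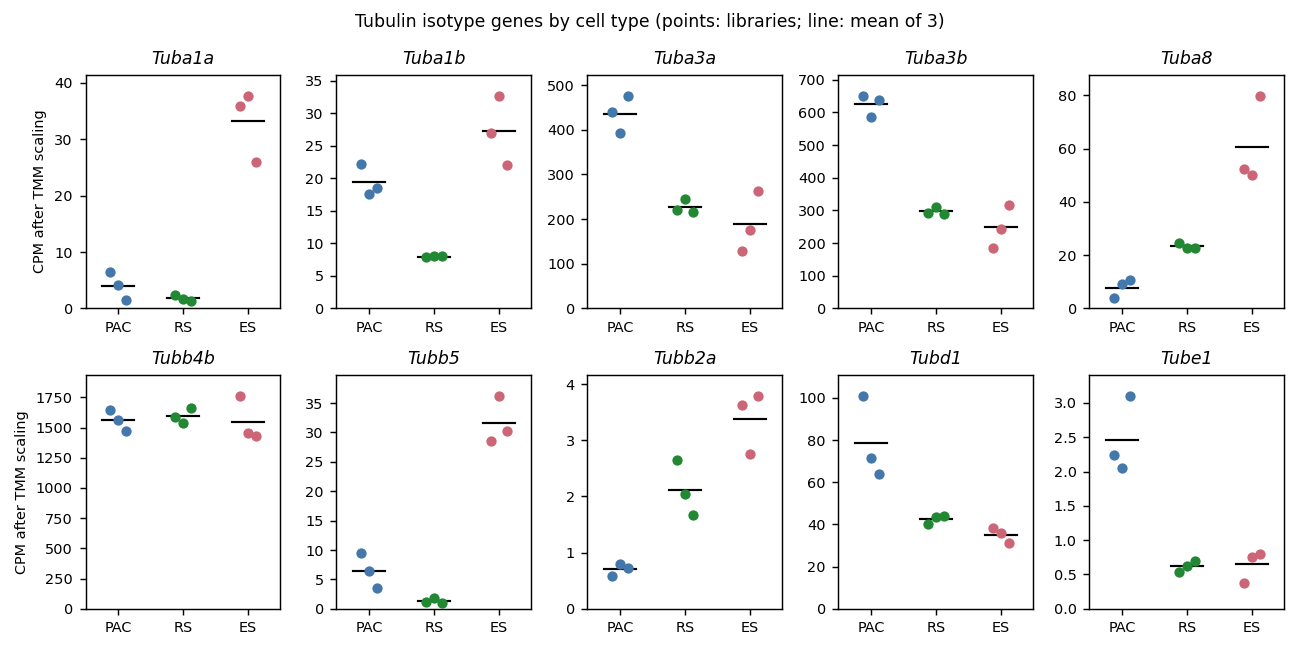
CPM after TMM scaling (vertical axis, linear, from 0) of each isotype gene in the 3 libraries of PAC, RS and ES. Points are libraries and lines are means of 3. Tubb4b stays between 1433 and 1760.2 CPM, the Tuba3 genes are highest in PAC, Tuba8 and Tubb2a are lowest in PAC, and Tuba1a, Tuba1b and Tubb5 are highest on average in ES.

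The comparison of RS with PAC asks which isotype genes change as cells leave meiosis. Of the 10 isotype genes, 7 were called lower in RS (Tuba1a, Tuba1b, Tuba3a, Tuba3b, Tubb5, Tubd1 and Tube1) and 2 higher (Tuba8 and Tubb2a), at an adjusted p below 0.05 in edgeR's quasi-likelihood test over 26030 features. All 10 had passed the filter on low counts. Of all features tested, 34.2% were called lower, 38.2% higher and 72.5% in either direction. The median log2 fold change was -1.01 over the isotype genes and 0.11 over all features. The CPM of the 2 groups did not overlap for 8 of the 10 genes, the exceptions being Tubb4b and Tuba1a, and for 79.1% of all features, so this count is near the background.

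From RS to ES, the step in which the manchette and tail are built, 4 isotype genes were called higher (Tuba1a, Tuba1b, Tuba8 and Tubb5). None was called lower by edgeR: 0 were lower at an unadjusted p below 0.05 and 0 by DESeq2. Of all features 24.5% were called higher, 22.1% lower and 46.6% in either direction, and the medians were 0.37 over the isotype genes and 0.05 over all. The count of 0 lower depends on scaling, since 3 genes were lower with total counts alone as the scale, and on ES replicate 3, without which 2 were lower. With total counts alone, 34.4% of all called features were higher, against 52.6% with TMM. In ES against PAC 5 isotype genes were called higher (the 4 above and Tubb2a) and 4 lower (Tuba3a, Tuba3b, Tubd1 and Tube1), with 30.6% of all features called higher, 33.7% lower and 64.4% in either direction. The medians were 0.24 over the isotype genes and -0.09 over all features, and 47.6% of called features were higher with TMM against 57.9% with upper-quartile factors. The CPM of the 2 groups did not overlap for 6 of the 10 genes in ES against RS, beside 59.4% of all features, and for 8 in ES against PAC, beside 67.5%. The 3 comparisons share libraries pairwise. A joint edgeR test over the 3 cell types passed for all isotype genes but Tubb4b (adjusted p = 0.94), against 82.0% of all features.

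**Figure D2:**
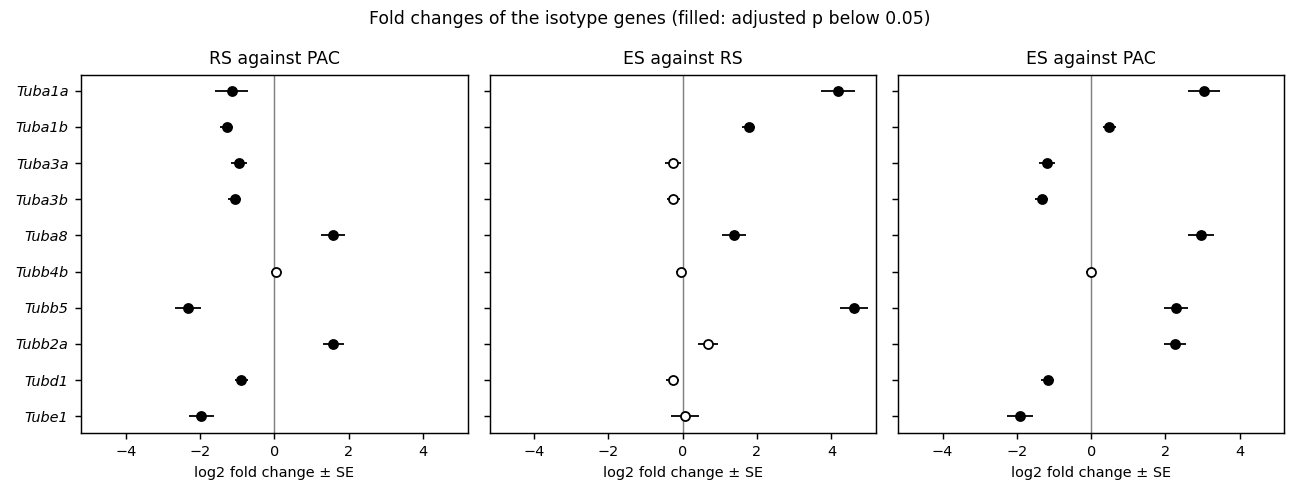
Log2 fold change with its standard error (horizontal axis) of each isotype gene in the 3 comparisons from edgeR. Filled points have an adjusted p below 0.05. The largest change is that of Tubb5 in ES against RS, 4.61, and all 3 points of Tubb4b are open and near 0.

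By edgeR no comparison called a change of Tubb4b. Its libraries measured 1642, 1565 and 1472 CPM in PAC, 1589, 1538 and 1662 in RS, and 1760.2, 1453 and 1433 in ES. All 3 groups overlapped, and the highest and the lowest of the 9 values were both in ES. By FPKM all ES libraries, at 826 to 841, lay below all PAC libraries, at 959 to 1055, and all RS libraries, at 1043 to 1132. The log2 fold change of CPM was 0.03 for RS against PAC (SE 0.13, adjusted p = 0.819 with edgeR), -0.04 for ES against RS (SE 0.13, adjusted p = 0.8) and -0.01 for ES against PAC (SE 0.13, adjusted p = 0.949). This call depends on the scale in ES: with total counts alone the gene was lower in ES than in RS (-0.39, adjusted p = 0.0129) and than in PAC (-0.31, adjusted p = 0.0273), and with upper-quartile factors it stood 0.30 above PAC without passing (adjusted p = 0.091). On log2 FPKM with a pseudocount of 1, limma also called it lower in ES than in RS (-0.38, adjusted p = 0.0119) and than in PAC (-0.29, adjusted p = 0.0336). Those scalings moved the median of all features too, by -0.33 for ES against RS with total counts, by -0.28 for ES against PAC with total counts and by 0.30 for ES against PAC and 0.31 for RS against PAC with upper-quartile factors. DESeq2's size factors moved it by 0.14 for ES against RS.

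Tuba3a and Tuba3b both fell from PAC to RS. Tuba3b measured 651, 586 and 637 CPM in PAC, 292, 312 and 288 in RS, and 185, 244 and 316 in ES. Tuba3a measured 439, 392 and 476 CPM in PAC, 219.5, 245 and 216 in RS, and 129, 177 and 263 in ES. For both genes the PAC libraries lay above all others, and the RS libraries lay inside the range of the ES libraries. The log2 fold change of RS against PAC was -1.07 for Tuba3b (SE 0.17, adjusted p = 0.00021 with edgeR) and -0.94 for Tuba3a (SE 0.22, adjusted p = 0.00225). Counted as 1 gene, the pair went from 1061 ± 72.7 CPM in PAC to 524 ± 28.7 in RS and 438 ± 133 in ES. The log2 fold change of the sum was -1.02 in RS against PAC and -1.28 in ES against PAC (adjusted p = 0.000587 and 0.000121 with edgeR). From RS to ES the sum gave -0.26 (adjusted p = 0.284). Without ES replicate 3 both genes were called lower in ES than in RS (-0.58 for Tuba3a, adjusted p = 0.0177, and -0.48 for Tuba3b, adjusted p = 0.0276), and with total counts alone Tuba3b was (-0.57, adjusted p = 0.0417).

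The promoters of the 3 most abundant isotype genes are shown because they hold repeats of 1 short motif. Each is the 250 bases before the start of the gene, 5′ to 3′ on the gene's strand, from RefSeq on GRCm38.p6, where 10 of 10 isotype genes were matched. Capitals mark the CCAAT box, searched as CCAAT on both strands.
Tubb4b (chr2:25224703-25224952, minus strand): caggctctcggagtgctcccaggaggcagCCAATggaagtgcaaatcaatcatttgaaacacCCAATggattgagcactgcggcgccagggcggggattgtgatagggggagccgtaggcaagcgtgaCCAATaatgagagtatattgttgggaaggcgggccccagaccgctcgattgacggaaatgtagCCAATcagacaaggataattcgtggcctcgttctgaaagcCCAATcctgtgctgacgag
Tuba3a (chr6:125286082-125286331, minus strand): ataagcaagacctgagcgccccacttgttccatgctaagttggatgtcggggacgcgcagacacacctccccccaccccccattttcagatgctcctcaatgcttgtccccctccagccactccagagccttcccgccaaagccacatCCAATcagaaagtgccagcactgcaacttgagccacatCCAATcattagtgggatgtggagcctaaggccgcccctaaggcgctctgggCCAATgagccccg
Tuba3b (chr6:145615713-145615962, plus strand): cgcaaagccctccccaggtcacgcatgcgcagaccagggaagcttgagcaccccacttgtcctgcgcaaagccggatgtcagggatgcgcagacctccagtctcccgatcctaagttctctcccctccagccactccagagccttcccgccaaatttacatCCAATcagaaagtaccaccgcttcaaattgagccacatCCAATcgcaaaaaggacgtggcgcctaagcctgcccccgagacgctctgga
The window of Tubb4b holds 5 matches, that of Tuba3a 3 and that of Tuba3b 2. Among 32851 promoter windows of the same length, 33.8% hold at least 1 match, 10.1% at least 2, 2.79% at least 3 and 0.213% at least 5. Tubb5 has 2 matches, Tuba1a and Tube1 1 each, and the other 4 isotype genes 0. The windows of Tuba3a and Tuba3b align over 205 bases with 164 identical, so their matches are not independent of each other. The cAMP response element TGACGTCA, also searched on both strands, occurs once, in the window of Tubb2a, and in 1.55% of all windows. A match describes the letters and not a bound site.

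Tuba8, an alpha tubulin without the terminal tyrosine codon, rose at each step. It measured 3.79, 9.17 and 10.6 CPM in PAC, 24.5, 22.8 and 22.8 in RS, and 52.3, 50.05 and 79.8 in ES. No library of 1 cell type fell within the range of another. The log2 fold change was 1.58 in RS against PAC (SE 0.32, adjusted p = 0.00142 with edgeR) and 1.38 in ES against RS (SE 0.32, adjusted p = 0.00492), and ES stood 7.74-fold above PAC. The call in ES against RS was lost with limma on log2 FPKM with a pseudocount of 0.1 and no filter (1.01, adjusted p = 0.0642). An antisense gene, Gm15856, overlaps Tuba8.

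Tubb2a, a beta tubulin best known from brain, was low but rose after meiosis. Its values were 0.591, 0.804 and 0.721 CPM in PAC, 2.65, 2.05 and 1.66 in RS, and 3.62, 2.75 and 3.79 in ES. RS and ES lay above PAC in every library. RS exceeded PAC by 1.59 on the log2 scale (SE 0.29, adjusted p = 0.000455 with edgeR) and ES by 2.26 (SE 0.29, adjusted p = 3.81e-05). All ES values also exceeded all RS values, but the difference of 0.67 did not pass with edgeR (SE 0.27, adjusted p = 0.0561). It passed with DESeq2 (0.82, adjusted p = 0.0231), with DESeq2's size factors in edgeR (0.81, adjusted p = 0.0267), with only these cell types (0.71, adjusted p = 0.047), without RS replicate 1 (0.85, adjusted p = 0.0496) or ES replicate 2 (0.80, adjusted p = 0.0494), and when Tubb2a and Tubb2b were counted as 1 gene (0.71, adjusted p = 0.0439). These levels rest on few reads, 18.9 to 22 estimated counts per PAC library.

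Tubb5, Tuba1a and Tuba1b, widely expressed outside the germ line, had another shape, with their lowest means in RS and their highest in ES. Tubb5 measured 9.49, 6.47 and 3.46 CPM in PAC, 1.08, 1.78 and 0.993 in RS, and 28.6, 36.2 and 30.2 in ES. Each ES library exceeded each PAC library, and each PAC library each RS library. It fell by 2.33 on the log2 scale from PAC to RS (SE 0.35, adjusted p = 0.000158 with edgeR) and rose by 4.61 from RS to ES (SE 0.37, adjusted p = 7e-06), which is 24.7-fold.

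Tuba1b measured 22.3, 17.6 and 18.5 CPM in PAC, 7.89, 8.0 and 8.0 in RS, and 26.9, 32.7 and 22.1 in ES. All RS values lay below both other groups, while PAC and ES overlapped. It fell by 1.29 from PAC to RS (SE 0.17, adjusted p = 5.48e-05 with edgeR) and rose by 1.77 from RS to ES (SE 0.18, adjusted p = 1.69e-05). The log2 fold change of ES against PAC was 0.49 (SE 0.17, adjusted p = 0.0259), a call lost with total counts alone (0.20, adjusted p = 0.365) and without PAC replicate 2 (0.40), PAC replicate 3 (0.43) or ES replicate 2 (0.33).

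Tuba1a measured 6.38, 4.20 and 1.51 CPM in PAC, 2.41, 1.75 and 1.31 in RS, and 35.9, 37.7 and 25.9 in ES. All ES values lay above the rest, and PAC overlapped RS. ES exceeded RS by 4.18 on the log2 scale (SE 0.46, adjusted p = 6.07e-05 with edgeR), or 18.2-fold. The change of RS against PAC was -1.15 (SE 0.44, adjusted p = 0.0362), and it was -0.65 without PAC replicate 1 (adjusted p = 0.178). The call was also lost without PAC replicate 2 (-1.12), RS replicate 2 (-1.11), RS replicate 3 (-0.96) or ES replicate 1 (-1.15). Other methods lost it too: upper-quartile factors (-0.86), no filter (-1.14) and only these cell types (-1.14) in edgeR. So did limma on log2 FPKM with a pseudocount of 1 (-0.60) or 0.1 (-0.85).

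Summed with their close copy Tuba1c, which is not an isotype gene of the set, Tuba1a and Tuba1b gave another picture at the first step. The sum, itself uncertain for the reads shared with other genes, was 29.9 ± 4.84 CPM in PAC, 33.0 ± 1.47 in RS and 137 ± 13.2 in ES. RS then exceeded PAC by 0.14 on the log2 scale (SE 0.15, adjusted p = 0.389 with edgeR), and Tuba1c alone was 6.45 ± 0.684 CPM in PAC and 23.2 ± 1.94 in RS, a rise of 1.85 (adjusted p = 2.8e-06). The higher level in ES remained in the sum, at 2.06 above RS (SE 0.15).

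Sertoli markers had the same order of groups as these 3 genes, and the other somatic lists did not. Of the 9 tested Sertoli markers, 9 were lower in RS than in PAC and 9 were higher in ES than in RS, with median log2 fold changes of -2.17 and 5.12. Clu, abundant in Sertoli cells, measured 27.1 ± 6.16, 2.15 ± 0.127 and 99.99 ± 13.5 CPM, and Sox9, the Sertoli cell transcription factor, 0.256 ± 0.126, 0.0396 ± 0.0343 and 1.83 ± 0.528. In order of replicate, Sertoli markers summed to 65.3, 46.1 and 33.2 CPM in PAC and 8.23, 8.52 and 8.85 in RS. In ES they summed to 200.1, 238 and 212 CPM. Tubb5 had the same order of libraries as these sums within PAC and ES, but not within RS. Tuba1a had it within PAC alone, and Tuba1b did not have it within PAC or ES. Of 7 tested macrophage and blood markers, 5 were higher in ES than in RS, and their sum was lowest in PAC. Leydig markers, of the steroid-making cells, were highest in PAC and summed to 100.4 to 137 CPM in PAC, 2.10 to 2.25 in RS and 19.4 to 25.9 in ES. Peritubular and vascular markers were lowest in PAC, with 3.98 to 5.16, 11.6 to 20.2 and 9.10 to 13.3 CPM. Some germ cell markers dipped in RS too. Of 7 spermatogonial markers, 5 were lower in RS than in PAC and the same 5 higher in ES than in RS. Gfra1 went the other way at each step. The spermatogonial sum was highest in PAC, with 91.6 to 119, 34.5 to 37.1 and 37.5 to 46.3 CPM. The part of somatic or other germ cells in the levels of Tubb5, Tuba1a and Tuba1b was not tested. In bulk libraries, fewer cells of a type and less RNA per cell cannot be told apart.

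**Figure D3:**
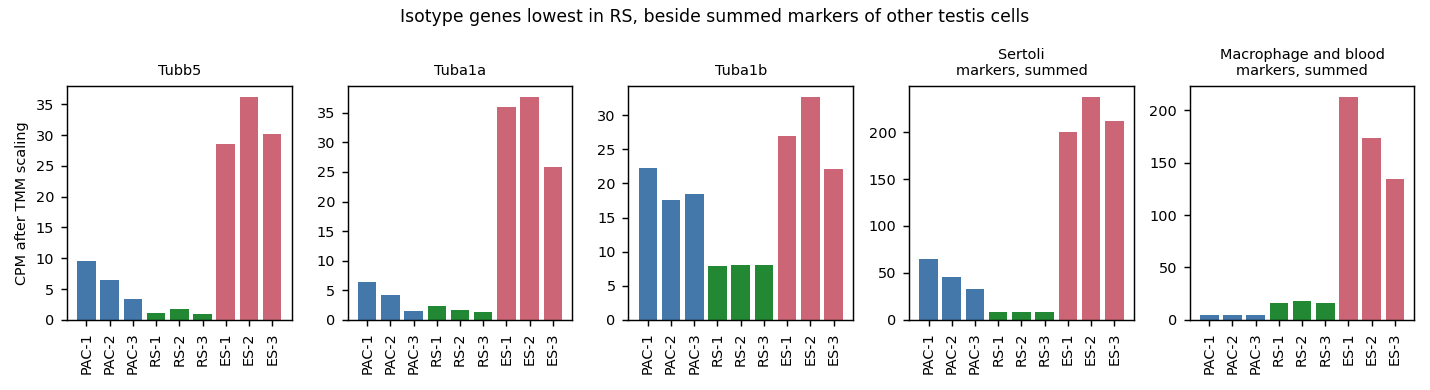
CPM after TMM scaling (vertical axes, linear, from 0) per library of Tubb5, Tuba1a and Tuba1b, and summed CPM of 10 Sertoli markers and of 8 macrophage and blood markers. Bars are libraries, coloured by cell type. The 3 genes and the Sertoli sum are lowest on average in RS and highest in ES, and the macrophage and blood sum is lowest in PAC.

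Tubd1 and Tube1, the centriolar tubulins, were highest in PAC and were not called between RS and ES. Tubd1 measured 101, 71.5 and 63.7 CPM in PAC, 40.04, 43.5 and 44.1 in RS, and 38.3, 35.8 and 31.4 in ES. Each PAC library exceeded each RS library and each RS library each ES library, the last by a small margin. The log2 fold change was -0.89 in RS against PAC (SE 0.17, adjusted p = 0.00079 with edgeR) and -0.28 in ES against RS (SE 0.17, adjusted p = 0.215). The second passed with total counts alone (-0.61, adjusted p = 0.0127). Tube1 measured 2.24, 2.05 and 3.10 CPM in PAC, 0.542, 0.628 and 0.701 in RS, and 0.378, 0.755 and 0.804 in ES. PAC lay above all other libraries. RS against PAC gave -1.97 on the log2 scale (SE 0.34, adjusted p = 0.000325 with edgeR) and ES against PAC -1.91 (SE 0.35, adjusted p = 0.000546). From RS to ES it was 0.06 (SE 0.37, adjusted p = 0.906), on 7 to 24 estimated counts per library. Their protein partners Tedc1 and Tedc2, which work with delta and epsilon tubulin at centriole triplets, were both lower in RS than in PAC. Tedc1 went from 45.5 ± 8.05 CPM in PAC to 14.3 ± 1.62 in RS and 15.8 ± 2.67 in ES, and Tedc2 from 3.12 ± 1.02 to 0.921 ± 0.0690 and 1.06 ± 0.309. Both were called lower in RS and in ES against PAC, and neither between RS and ES.

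The makeup of the alpha and beta pools was compared as shares of summed FPKM within each library. The alpha pool is the sum of Tuba1a, Tuba1b, Tuba1c, Tuba3a, Tuba3b, Tuba4a, Tuba8 and Tubal3. In it Tuba3a and Tuba3b together held 96.3%, 95.7% and 96.6% in PAC, 84.9%, 85.6% and 84.2% in RS, and 52.2%, 65.3% and 69.4% in ES. Every RS share was below every PAC share and every ES share below every RS share. Tuba8 held 0.752% ± 0.347 (SD, n = 3) of the pool in PAC, 3.98% ± 0.289 in RS and 9.10% ± 0.932 in ES. Tuba1a held 0.358% ± 0.213, 0.287% ± 0.0887 and 4.83% ± 1.58, and Tuba1b 1.40% ± 0.211, 1.01% ± 0.0636 and 3.74% ± 1.21. Among alpha genes outside the set, Tuba1c reached 10.04% ± 2.62 in ES and Tuba4a 9.71% ± 4.88, of which ES replicate 1 had 15.3%. The part of somatic cells in the ES shares was not tested.

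In the beta pool, the sum of Tubb1, Tubb2a, Tubb2b, Tubb3, Tubb4a, Tubb4b, Tubb5 and Tubb6, Tubb4b held 97.6% ± 0.285 in PAC, 93.9% ± 0.782 in RS and 94.3% ± 0.428 in ES. Tubb6 made up most of the rest, with 2.0% ± 0.316, 5.84% ± 0.739 and 3.51% ± 0.454, and Tubb5 held 0.241% ± 0.101, 0.0460% ± 0.0168 and 1.18% ± 0.246. Tubb4a was listed at 0 in all libraries. The groups did not overlap for Tuba3a, Tuba3b and Tuba8 at either step, for which the exact two-sided permutation test gave p = 0.1, the smallest value that 3 against 3 libraries allow, and 0.108 after adjustment over 27 tests. For Tuba1a in RS against PAC the exact permutation p was 0.6, and for Tubb4b in ES against RS it was 0.5. A design of this size cannot reach 0.05.

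**Figure D4:**
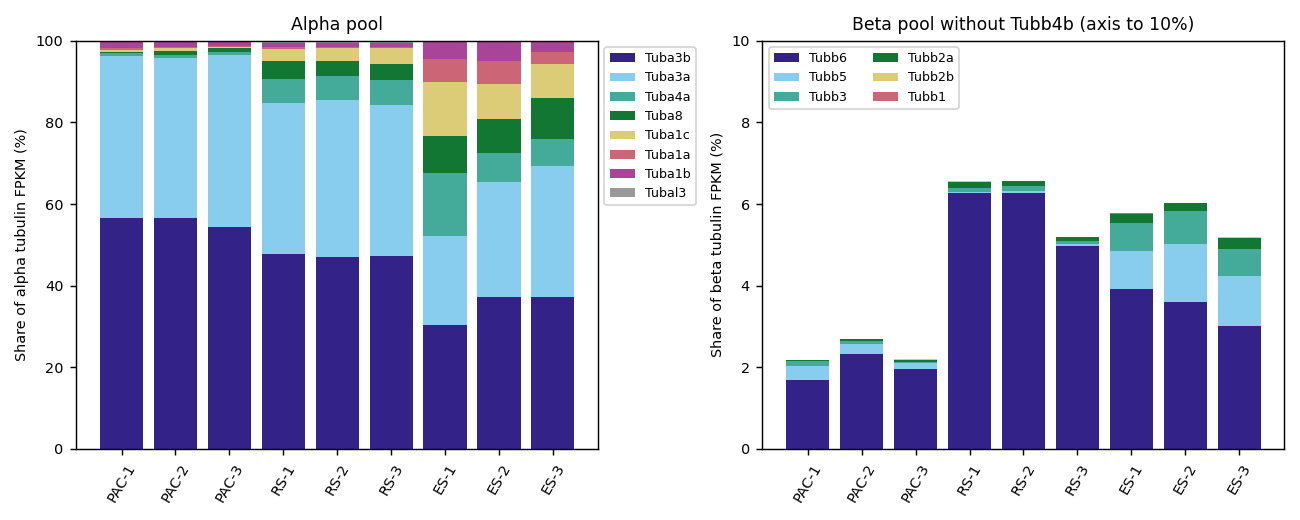
Share of the summed FPKM of alpha tubulin genes (left axis from 0 to 100%) and of beta tubulin genes without Tubb4b (right axis from 0 to 10%) in each library. Coloured segments are genes. Tuba3a and Tuba3b together take 95.7% to 96.6% of the alpha pool in PAC and 52.2% to 69.4% in ES, and the beta genes other than Tubb4b are led by Tubb6 in all libraries.

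The pools were also compared as sums. The alpha pool summed to 748 ± 32.8 FPKM in PAC, 437 ± 18.7 in RS and 394 ± 102 in ES, and the beta pool to 1046 ± 57.0, 1159 ± 39.8 and 885 ± 12.1. The ratio of beta to alpha FPKM was 1.43, 1.52 and 1.26 in PAC, 2.72, 2.43 and 2.82 in RS, and 3.0, 2.31 and 1.74 in ES. All RS and ES ratios exceeded all PAC ratios, and RS and ES overlapped.

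No scaling of libraries enters the ratio of 1 isotype gene to another within a library. The FPKM ratio of Tubb4b to Tubb5 was 286, 400.02 and 703 in PAC, 2419, 1432 and 2767 in RS, and 102, 66.4 and 78.3 in ES. These 3 sets of values did not overlap (exact permutation p = 0.1 for each pair, 0.12 adjusted over 6 tests). The ratio of Tuba3a plus Tuba3b to Tuba1a plus Tuba1b was 44.5, 53.7 and 73.1 in PAC, 57.8, 69.8 and 70.5 in RS, and 5.23, 6.32 and 12.9 in ES. PAC and RS overlapped (exact permutation p = 0.4), and all ES values lay below both (p = 0.1). This ratio leaves out Tuba1c, with which Tuba1a and Tuba1b share windows. With Tuba1c added, the Tuba1 genes held 2.65%, 2.39% and 1.76% of the alpha pool in PAC and 4.50%, 4.24% and 4.93% in RS. Tuba3a plus Tuba3b held less in every RS library than in any PAC library. The overlap of PAC and RS therefore holds only for the ratio without Tuba1c.

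The genes whose pattern was most like that of an isotype gene were sought by Pearson's r of log2 CPM over the 9 libraries among 12847 other genes, as a description. All points share library and depth. Nearest to Tubb4b were Malsu1 (r = 0.890), Meig1 (0.885) and Me3 (0.884). Since Tubb4b did not pass the joint edgeR test over the cell types (adjusted p = 0.94), these values describe largely differences between single libraries. Meig1, needed for the manchette and tail, stood at 2655 CPM in PAC, 3068 in RS and 2711 in ES. Nearest to Tuba3b were Qrich1 (0.992), Zfp263 (0.991) and Surf4 (0.991). Nearest to Tuba3a were Tuba3b (0.988), with which it shares reads, Zfp263 (0.986) and Hspa2 (0.984), the testis chaperone of meiosis. Nearest to Tubd1 were Snrnp25 (0.996), Klhdc4 (0.995) and Cfap300 (0.994), a gene of dynein arm assembly.

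Other genes of the tubulin pathway were taken from 11 lists with 71 genes, 67 of which passed the filter on low counts. In RS against PAC 21 were called higher and 29 lower, in ES against RS 19 and 21, and in ES against PAC 17 and 33. Of all features, 38.2% were called higher and 34.2% lower in RS against PAC. In ES against RS these shares were 24.5% and 22.1%, and in ES against PAC 30.6% and 33.7%. The counts of each list below stand beside these shares. Where the edgeR count of a list is given as 0 below, it was also 0 at an unadjusted p below 0.05, and 0 by DESeq2 except for 1 gene of the tyrosination cycle.

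Among the other tubulin genes 6 of 7 tested were higher in RS than in PAC and 0 lower by edgeR, and in ES against PAC the counts were again 6 and 0. Tuba4a, an alpha tubulin whose gene does not encode the terminal tyrosine, went from 11.5 ± 2.03 CPM in PAC to 57.9 ± 2.40 in RS and 101 ± 38.1 in ES. Tubb6 went from 31.0 ± 4.14 to 93.6 ± 10.7 and back to 46.1 ± 8.08, and was called at each step. Tubb3, the neuronal beta tubulin, measured 1.22 ± 0.682 and 1.61 ± 0.186 CPM in PAC and RS and rose to 12.9 ± 1.69 in ES. The part of somatic cells in this rise, beside the somatic markers given above, was not tested. Tubg2, a gamma tubulin, had 0 counts in all PAC libraries and 0.861 ± 0.145 CPM in ES, at least 8.31-fold higher than a floor of 3 counts per PAC library. The median log2 fold change of the other 6 tested genes was 1.67, 0.76 and 2.23 in RS against PAC, ES against RS and ES against PAC, and 3.06 over all 7 in ES against PAC with Tubg2 at its bound.

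Most genes of the ring that nucleates microtubules were lower after meiosis than in PAC. Of 10 genes of the gamma-tubulin ring complex and its recruiters, 8 were lower in RS than in PAC and 8 in ES than in PAC, with 0 higher in either by edgeR and medians of -0.68 and -1.04. Mzt2 and Nme7 were those not called in RS against PAC. In ES against RS 2 genes, Tubgcp5 and Tubgcp6, were called higher and 3 lower. Tubgcp5, a subunit of the ring, went from 5.02 ± 1.45 CPM to 0.249 ± 0.115 in RS and 2.45 ± 0.368 in ES. Tubgcp6 fell from 12.4 ± 1.12 to 1.66 ± 0.122 CPM and stood at 3.24 ± 0.321 in ES. The most abundant of the list, Cdk5rap2, which anchors the ring at centrosomes, fell from 162 ± 41.1 to 99.1 ± 7.32 CPM in RS, and Mzt2 fell from 141 ± 2.74 in RS to 68.6 ± 3.35 in ES. The gamma tubulin Tubg1, counted among the other tubulin genes and named here after its values were seen, went the other way, with 2.25 ± 0.574, 3.40 ± 0.425 and 5.60 ± 0.552 CPM. ES exceeded PAC by 1.32 (SE 0.24, adjusted p = 0.000491 with edgeR). Its calls at the single steps, 0.60 and 0.72, were each lost under several alternatives, among them no filter on low counts (adjusted p = 0.0578 and 0.0508).

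Tubulin folding cofactors, which assemble the alpha and beta heterodimer, split in RS with 3 of 7 higher and 3 lower (median -0.39), while in ES against PAC 5 were lower and 0 higher by edgeR (median -0.62). Tbce rose from 26.6 ± 1.21 CPM in PAC to 55.6 ± 2.92 in RS and fell to 17.3 ± 0.761 in ES. Tbcc followed the same course, with 67.6 ± 6.95, 91.5 ± 3.26 and 40.0 ± 3.48 CPM, whereas Tbcd went from 32.4 ± 4.26 to 14.0 ± 0.838 and up to 25.1 ± 1.96. By DESeq2 4 genes were lower in ES against PAC, without Tbcd. Its edgeR call there (-0.37, adjusted p = 0.0426) was lost with DESeq2 (adjusted p = 0.117), with the replicate block (adjusted p = 0.052) and on leaving out any library but PAC replicate 3 (-0.31 to -0.42). Tbcb fell from 93.6 ± 21.5 to 51.3 ± 3.52 CPM in RS. Arl2, the small GTPase of the cofactor machine, went from 9.40 ± 1.61 to 20.3 ± 1.70 and 11.7 ± 3.03.

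Prefoldin, the chaperone that hands nascent tubulin to the CCT folding ring, had 3 of 6 subunit genes lower and 1 higher in RS than in PAC (median -0.45). Pfdn4 fell from 18.2 ± 6.15 to 3.42 ± 0.139 CPM and Vbp1 rose from 4.86 ± 0.627 to 10.5 ± 0.950. The most abundant, Pfdn5, was called in no comparison, at 362 ± 71.7, 359.8 ± 11.9 and 469 ± 158 CPM.

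The genes that act on the alpha tail form the next lists. In the tyrosination cycle, Vash1, Vash2 and Svbp, the enzymes and the chaperone that remove the terminal tyrosine, were higher in RS than in PAC, and Ttl, the ligase that puts it back, was lower. Vash2 went from 54.0 ± 17.2 to 148 ± 4.11 and 147 ± 28.4 CPM and Svbp from 115 ± 18.1 to 167 ± 3.77 and 186 ± 36.9. Ttl was near the detection limit at 0.736 ± 0.144, 0.105 ± 0.0687 and 0.261 ± 0.0553. The same 3 were higher in ES against PAC. There the lower level of Ttl was called by edgeR (-1.49, adjusted p = 0.0322) but not by DESeq2 (-1.42, adjusted p = 0.0621), which called 0 lower, nor with the replicate block (adjusted p = 0.0502), upper-quartile factors, no filter or any PAC or ES library left out (-1.34 to -1.67). None of the 4 was called between RS and ES, where edgeR gave 0 and DESeq2 called 1, Vash1. Over the same libraries the alpha share held by Tuba8, which lacks the terminal tyrosine codon, went from 0.752% in PAC to 9.10% in ES. That of Tuba4a, which does not encode the terminal tyrosine either, went from 0.671% to 9.71%. That of Tuba3a plus Tuba3b, which have this codon, went from 96.2% to 62.3%, and so remained the largest part. The share of Tuba1a, Tuba1b and Tuba1c together went from 2.27% to 18.6%.

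Among genes of acetylation, a mark on the inside of the microtubule, the acetyltransferase Atat1 rose from 14.2 ± 1.09 to 27.2 ± 1.94 CPM in RS. The deacetylases Hdac6 and Sirt2 fell, Hdac6 from 7.61 ± 1.97 to 1.59 ± 0.509 and Sirt2 from 125 ± 16.5 to 56.3 ± 3.69. Both rose in ES, to 20.1 ± 2.78 and 134 ± 32.2 CPM, beside the somatic markers given above, whose part was not tested.

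Glutamylation enzymes, which add glutamate chains to the tail, gave 3 of 12 higher, 3 lower and 6 not called in RS against PAC (median 0.05), and 1 higher and 4 lower in ES against RS (median -0.43). Ttll7 rose from 133 ± 18.8 to 427 ± 19.1 CPM in RS and fell to 175 ± 7.26 in ES. Ttll13 was the most abundant in RS, at 578 ± 44.5 CPM, and Tpgs2, a subunit of the polyglutamylase complex, rose from 172 ± 14.2 in RS to 326 ± 32.6 in ES. Of the glycylation enzymes, Ttll8 fell from 385 ± 93.0 to 131 ± 4.55 CPM in RS and Ttll10 rose from 24.2 ± 11 to 72.2 ± 3.90 CPM. In ES Ttll10 stood at 128 ± 20.8 CPM, and its call against RS (0.82, adjusted p = 0.039 with edgeR) was lost with total counts alone (0.49, adjusted p = 0.209), with no filter, and without PAC replicate 2, any RS replicate or ES replicate 1 or 3 (0.69 to 0.84). Among 6 deglutamylases 2 were higher and 2 lower in RS against PAC: Agbl1 rose from 3.13 ± 0.352 to 12.1 ± 0.837 CPM and Agbl2 fell from 312 ± 23.9 to 76.9 ± 0.919. Agtpbp1, whose loss in mice causes male infertility, measured 479 ± 14.2, 528 ± 7.92 and 598 ± 54.8 CPM, and the joint edgeR test over the cell types did not pass (adjusted p = 0.0659). Its call as higher in ES against PAC (0.32, adjusted p = 0.0312) was lost with total counts alone (0.02, adjusted p = 0.867), with no filter, and without PAC replicate 2 or 3, any RS replicate or ES replicate 1 (0.24 to 0.32).

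Of 7 tested severing genes, 4 were lower and 0 higher in RS than in PAC by edgeR (median -0.42), and 6 were lower and 0 higher in ES than in PAC (median -0.66). Fignl1 fell from 134 ± 10.02 to 15.1 ± 1.51 CPM in RS. The katanin gene Katnal2, which acts on the manchette and the axoneme, was not called in RS against PAC and fell from RS to ES, from 124 ± 3.77 to 52.5 ± 6.63 CPM. Katnbl1 went from 2.95 ± 0.865 to 0.596 ± 0.0675 and back to 3.14 ± 1.11 CPM.

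**Figure D5:**
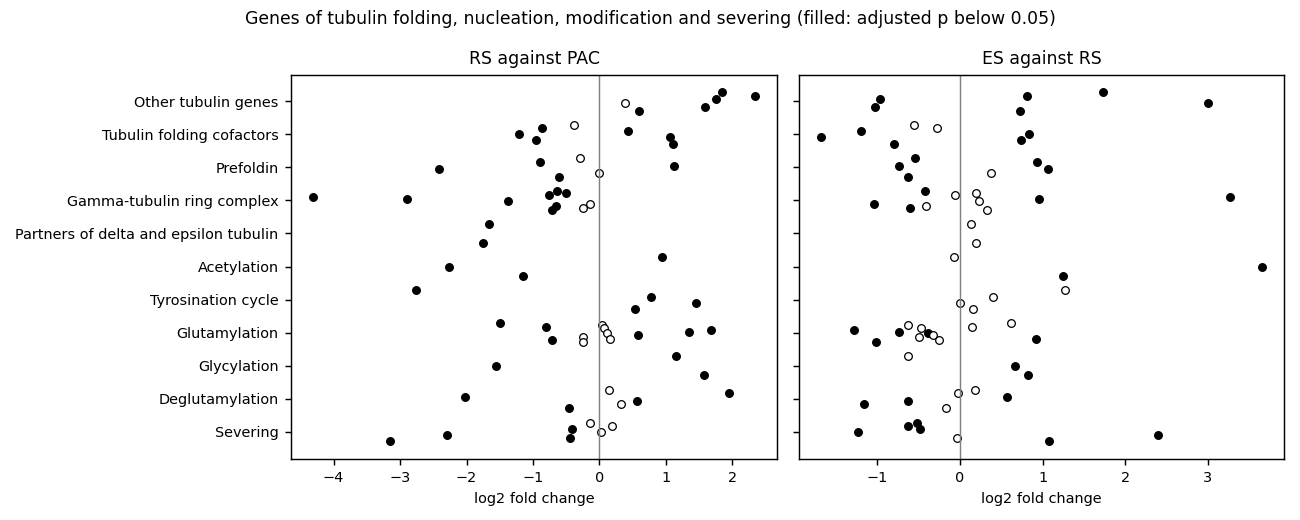
Log2 fold change (horizontal axes) of each tested gene of the 11 lists in RS against PAC and in ES against RS, without Tubg2, which had 0 counts in PAC. Filled points have an adjusted p below 0.05 in edgeR. All 10 genes of the gamma-tubulin ring complex lie below 0 in RS against PAC, 8 of them filled.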

How the data were processed

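RNA-seq of 3 cell types was analysed from 2 deposited tables. The authors deposited estimated counts per feature, without normalization, of which 18.85% were not whole, and these were rounded for the tests. The authors also deposited FPKM values of the same features. Per the submitters' processing notes, HISAT2, StringTie and the build GRCm38.p6 were used. Which length and total went into FPKM, and how multiply mapped reads were shared, is not given in the sources used here.

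Features were kept with filterByExpr (minimum count 10; 26030 of 50493 kept), scaled by TMM (factors 0.758 to 1.10), and fitted in edgeR over all 9 libraries without covariates (robust quasi-likelihood, two-sided), with Benjamini-Hochberg adjustment over all features tested. Shares and ratios of FPKM were compared by exact permutation tests. Coding sequences and shared windows came from GENCODE M21, promoters, symbols and coordinates from RefSeq. R 4.3.3, edgeR 4.0.16, limma 3.58.1 and DESeq2 1.42.0 were used. In simulated ES against RS data, 55 of 66 features changed 4-fold, 15 of 67 changed 2-fold and 1 of 67 changed 1.5-fold were recovered. There were 4 false calls among 25392 features. Only those few features were changed there, whereas 46.6% of all features were called in the real comparison. These rates therefore do not give the power of the real test. Intervals and floors cover counting error only.

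The isotype genes and the lists were chosen with earlier results of these data known. All isotype genes were named. From each list of pathway genes those with the highest mean CPM or the largest called changes were named, and from the other tubulin genes those over 1% of their pool. Some items that fall under this rule are not reported here. Alternatives were other scalings, no filter, DESeq2, 2 cell types alone, a replicate block, each library left out and limma on log2 FPKM with a pseudocount of 1 or 0.1. Summing close paralogs was added after seeing the data.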

Additional observations from a re-analysis of the deposited data

How the results depend on the processing

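Of 30 isotype fold changes, 18 kept their direction and call under all alternatives and 12 did not under at least 1. Of 107 fold changes of pathway genes examined in the same way, 78 kept both and 29 did not. The limits are read sharing between paralogs, the scale of the ES libraries, the few counts of Tube1 and Tubb2a, and 3 libraries per group. Whether shared replicate numbers mark shared animals or batches could not be decided from the correlations between libraries. Same-number correlations ran from -0.07 to 0.42, and 9 of 18 best matches had the same number. The highest correlations, 0.42 and 0.27, were both of same-number libraries of PAC and ES. With the replicate block 7 isotype genes were lower and 2 higher in RS against PAC, as without it.

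Isotype genes lower in ES against RS, 0 as reported, numbered 3 with total counts alone, 4 from FPKM with a pseudocount of 1, 3 with 0.1, 2 with 0.1 and no filter, and 0 to 2 with a library left out. List genes higher in ES against RS, 19 as reported, numbered 12 with total counts alone and 11, 11 and 10 from these FPKM settings. All features higher there, 6374 as reported, numbered 4114 and 3975 from FPKM with 0.1, with and without filter. Those lower, 5752 as reported, numbered 8934 and 8674 from FPKM with 1 and 0.1. The causes were not tested.

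Signs turned mainly for values near 0. Tubb4b in RS against PAC was -0.0227 with DESeq2 or its size factors, and ran from -0.0044 to 0.0688 with a library left out. In ES against RS it was 0.10 with both, and in ES against PAC 0.0802 with both, 0.30 with upper-quartile factors, 0.19 with only those cell types, and -0.1093 to 0.0321 with a library left out. Tube1 in ES against RS was -0.24 with total counts, -0.043 from FPKM with 1, -0.20 from FPKM with 0.1, with and without filter, and -0.1253 to 0.3189 with a library left out. Tuba1a and Tuba1b in RS against PAC were 0.14 as a paralog sum. Agtpbp1 in ES against PAC was -0.0184 and -0.0185 and Tbcd 0.12 and 0.13 from FPKM with 1 and 0.1. The share of Tuba1a in RS against PAC was 0.0239 points without PAC replicate 1 (-0.1857 to 0.0239 over all libraries left out), against -0.07 as reported. With only the isotype genes as pools, the share of Tuba3a in RS against PAC was 0.706 points, and that of Tubb4b 0.106 in RS against PAC and -1.27 in ES against RS. The causes were not tested.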
